A study of Homo sapiens with 6 samples.

Results

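DNA damage repair genes were followed in EndoC-βH1 cells, a line of human pancreatic beta cells, exposed to inflammatory cytokines. The 51 genes were listed by name, with earlier results of these data known. Each matched 1 locus among the 61695 loci of the deposited count tables. The cytokine group had 3 libraries, from cells exposed to IL-1β at 5 ng/ml, TNF-α at 10 ng/ml, IFN-γ at 50 ng/ml and IL-17 at 100 ng/ml for 24 h. The control group had 3 libraries from cells that did not receive these cytokines. All cells came from the same line, were seeded at 75000 per well, adhered for 24 h and grew in 11 mM glucose. Control cells are labelled as taken prior to exposure, whereas the extraction protocol speaks of 24 h without cytokines, so exposure and time in culture cannot be told apart. EndoC-βH1 was derived from fetal pancreas with SV40 large T antigen, a viral protein that inactivates p53 and the retinoblastoma proteins, and with telomerase. It is a single cycling line and differs in this from resting beta cells. Nothing in the labels says that libraries came from separate cultures, so the p-values measure the spread of these libraries alone, which could be technical.

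Cells mend different lesions with different machinery. Homologous recombination copies an intact sister chromatid across a broken end in S and G2 phase, and the Fanconi anaemia pathway unhooks crosslinks between strands and works with it. End joining ligates broken ends at any stage of the cycle. Mismatch repair corrects errors of replication, base excision repair replaces damaged bases, and nucleotide excision repair cuts out bulky lesions such as those made by ultraviolet light. In beta cells exposed to cytokines, nitric oxide is a known source of damaged bases and strand breaks.

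The authors' deposited tables hold 1 comparison, with means over all libraries, log2 fold changes and the standard errors (SE) of the authors' fit. Group means below are normalized read counts computed from that mean and fold change, and values per library were not used here. An average library held 40881975 normalized counts. FPKM are the authors' group levels, scaled to transcript length and library depth. The beta cell factors PDX1 and NKX6-1 had 16950 and 4809 normalized counts in cytokine cells and 17183 and 4815 in control cells. Of the 10 beta cell markers, 5 were lower and 3 higher in the authors' deposited table, and their means summed to 413087 normalized counts in cytokine cells and 289094 in control cells. Most of that sum was CHGA, with 296413 normalized counts in cytokine cells and 136426 in control cells, which the deposited FPKM table lists at 0 in both groups. SLC30A8, the zinc transporter of insulin granules, had 21850 normalized counts in cytokine cells and 33893 in control cells. The part of these marker changes in the results below was not tested. GCG and PTPRC, markers of alpha cells and leukocytes, had 4.26 and 0.657 normalized counts in cytokine cells and 7.34 and 2.71 in control cells. Some markers of other cells were well counted, such as KRT19 of ducts, with 3553 normalized counts in cytokine cells and 2937 in control cells. The 6 immune, endothelial and fibroblast markers summed to 23955 normalized counts in cytokine cells and 24973 in control cells. Most of that sum was 1 marker, with a mean of 23470 over all libraries, and only 2 of the 6 had a mean of at least 100 normalized counts. The 6 alpha, delta and PP cell markers summed to 4997 normalized counts in cytokine cells and 4085 in control cells, with a highest mean of 4444.

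Most repair genes that changed went down. At an adjusted p of 0.05 in the authors' deposited table, 31 of the 51 genes fell, 9 rose and 11 did not pass, and their log2 fold changes had a median of -0.34. Of all 30206 tested loci, 37.7% passed, 19.7% lower and 18.0% higher, with a median of 0.05. Repair genes are abundant, and 50 of the 51 had a mean of at least 100 normalized counts. Among the 13024 tested loci at that level, 71.2% passed, and 40.5% were lower and 30.8% higher, with a median of -0.05. Of the 51 genes, 7 were at least 2-fold lower, as were 3.27% of all tested loci and 3.92% of the 13024. NBN alone among the 51 was at least 2-fold higher. The deposited Cuffdiff table called 23 of the 51 lower and 6 higher at q of 0.05, against 17.9% and 17.8% of 21865 tested loci.

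**Figure D1:**
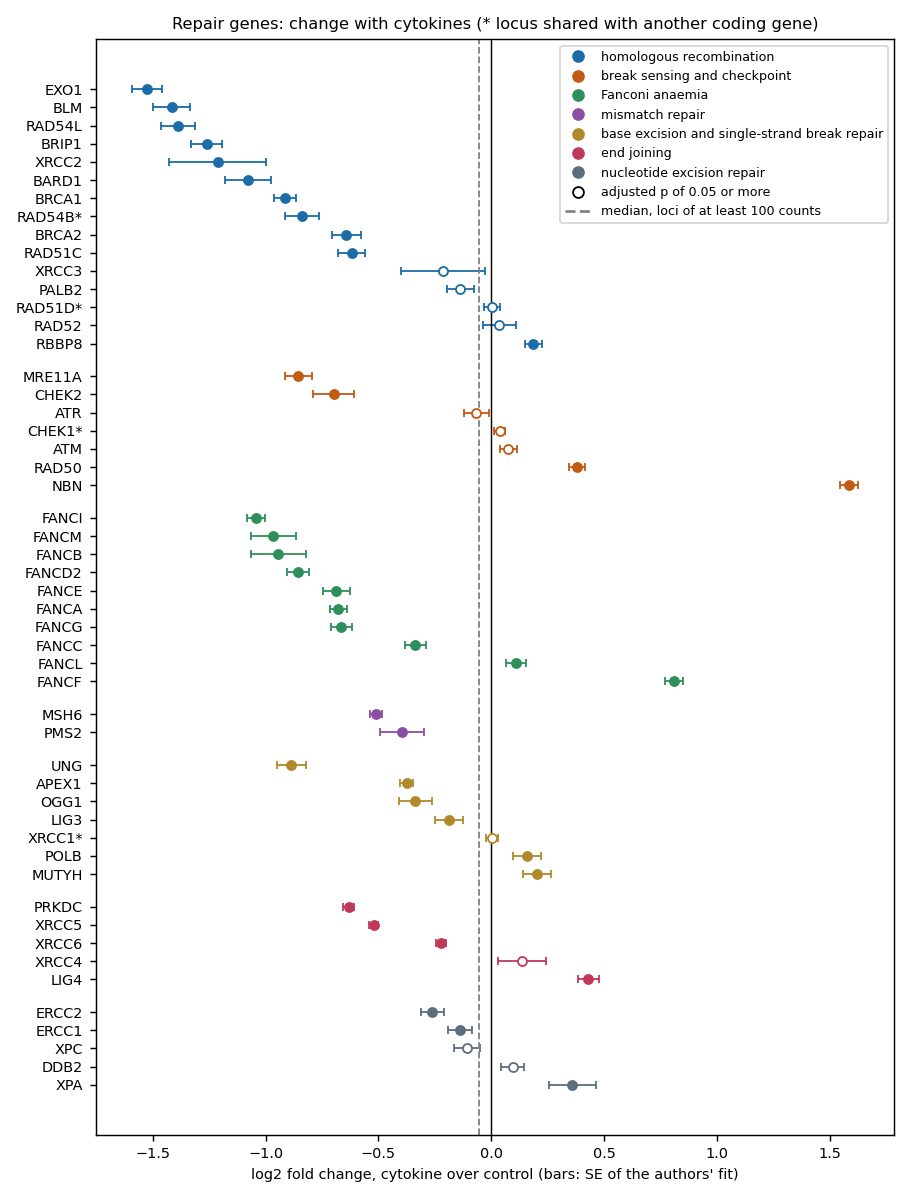
Each point is the deposited log2 fold change of 1 repair gene, cytokine over control, with the SE of the authors' fit, in blocks by repair class. NBN at 1.59 and EXO1 at -1.53 are the ends of the range.

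The classes differed in counts and medians, which are descriptions with no test between classes. Of the 13024 tested loci of at least 100 counts, 40.5% were lower and 30.8% higher. In the smaller classes a single gene changes the share much, so shares there cannot be set apart from these. Homologous recombination had 10 lower and 1 higher of 15 genes and a median log2 fold change of -0.84 in the authors' deposited table. The Fanconi class had 8 lower and 2 higher of 10, with a median of -0.68. Both mismatch repair genes were lower, with a median of -0.45. End joining had 3 lower and 1 higher of 5 and a median of -0.22, and base excision 4 lower and 2 higher of 7 and a median of -0.19. Nucleotide excision had 2 lower and 1 higher of 5 and a median of -0.11. Break sensing and checkpoint genes had 2 lower and 2 higher of 7 and a median of 0.04. That median of 0.04 is the value of the CHEK1 locus, where most FPKM belongs to another coding gene, so it is uncertain for the class.

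Proliferation markers moved with these falls. All 28 genes of the proliferation list were lower, with log2 fold changes of -1.54 to -0.35 and a median of -1.06 in the authors' table. Their means summed to 98016 normalized counts in cytokine cells and 203083 in control cells, and none was at 0. In bulk RNA, fewer cells of a kind and less RNA per cell cannot be told apart, and the part of proliferation in the falls was not tested.

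**Figure D2:**
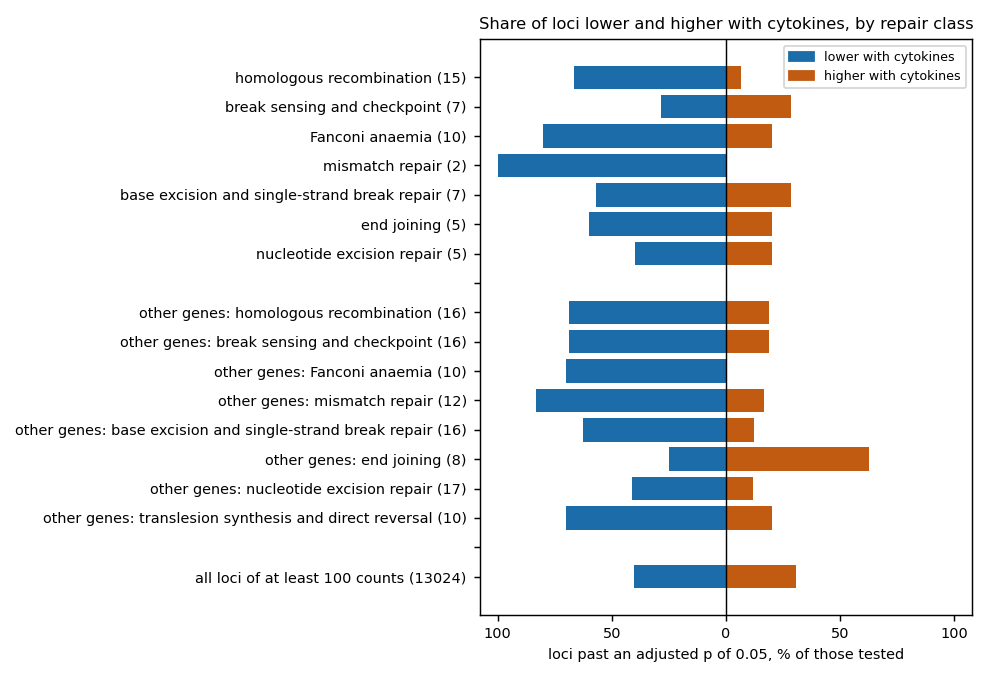
Bars give the share of tested loci in each repair class that were lower or higher with cytokines at an adjusted p of 0.05, for the 51 genes, for 105 other repair genes and for all 13024 loci of at least 100 counts. For the 51 genes, the lower share exceeds the 40.5% of all such loci in every class except break sensing and nucleotide excision. Among the 51, classes of few genes, such as end joining (3 lower of 5), base excision (4 of 7) and nucleotide excision (2 of 5), cannot be set apart from that share. For the 105 other genes, end joining lies below 40.5%, nucleotide excision lies near it at 41.2%, and the other classes lie above it.

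Among recombination genes, a nuclease, helicases and a translocase fell furthest. EXO1 (chromosome 1, 241847967 to 241895148), an exonuclease that resects broken ends and also serves mismatch repair, had 491 normalized counts in cytokine cells and 1414 in control cells. Its log2 fold change in the authors' deposited table was -1.53 ± 0.07 (SE; adjusted p = 3.07e-114), or 34.7% of the control level. BLM, a helicase that dissolves joined DNA molecules, had 344 normalized counts in cytokine cells and 919 in control cells, or -1.42 ± 0.08 in the authors' deposited table (adjusted p = 1.21e-67). RAD54L, a motor protein that drives strand exchange, had 393 normalized counts in cytokine cells and 1030 in control cells, or -1.39 ± 0.07 in the authors' deposited table (adjusted p = 2.09e-77). BRIP1, a helicase that binds BRCA1, had 512 normalized counts in cytokine cells and 1228 in control cells, or -1.26 ± 0.07 in the authors' deposited table (adjusted p = 4.25e-73).

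BRCA1, BARD1 and BRCA2 fell less far than these 4 genes, and PALB2 did not pass. BRCA1 (chromosome 17, 43044295 to 43170245), a ubiquitin ligase subunit that promotes resection, had 1160 normalized counts in cytokine cells and 2184 in control cells, or -0.91 ± 0.05 in the authors' deposited table (adjusted p = 3.69e-74). Its dimer partner BARD1 had 234 normalized counts in cytokine cells and 495 in control cells, or -1.08 ± 0.10 in the authors' deposited table (adjusted p = 3.79e-25). BRCA2 (chromosome 13, 32315086 to 32400268), which loads the recombinase onto single-stranded DNA, had 813 normalized counts in cytokine cells and 1269 in control cells. That was -0.64 ± 0.06 in the authors' deposited table (adjusted p = 2.21e-23), while the deposited Cuffdiff table did not call it (-0.34, q = 0.111). PALB2, which joins BRCA1 to BRCA2, had 968 normalized counts in cytokine cells and 1064 in control cells and did not pass (-0.14 ± 0.06 in the authors' deposited table, adjusted p = 0.0628).

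Of the recombinase paralogs, XRCC2 and RAD51C stood at 43.2% and 65.1% of control in the authors' deposited table. XRCC2 had the lowest mean of the 51 genes, with 48.8 normalized counts in cytokine cells and 113 in control cells, and the widest SE (-1.21 ± 0.22; the authors' adjusted p = 9.14e-08). XRCC3 did not pass (-0.21 ± 0.19). RAD51D shares a locus with RFFL, and the 3283 normalized counts in cytokine cells and 3278 in control cells belong to both. Transcripts named RAD51D summed to 11.3 FPKM in cytokine cells and 13.9 FPKM in control cells, and 0 of 9 tested ones passed a Cuffdiff q of 0.05. RAD54B, a relative of RAD54L, is counted with the coding gene FSBP and had 514 normalized counts in cytokine cells and 919 in control cells, or -0.84 ± 0.08 in the authors' deposited table (adjusted p = 5.91e-28). Transcripts named RAD54B summed to 3.98 FPKM in cytokine cells and 7.34 FPKM in control cells. RAD52, an annealing protein, did not pass (0.04 ± 0.07), and most of the FPKM of its locus came from transcripts that do not carry its name.

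RBBP8 alone among the 15 recombination genes rose. It encodes CtIP, which starts resection with the MRE11 complex, and had 4201 normalized counts in cytokine cells and 3693 in control cells, or 0.19 ± 0.04 in the authors' deposited table (adjusted p = 1.70e-06). A pair of its transcripts moved in opposite directions. RBBP8-201 had 21.1 FPKM in cytokine cells and 15.0 FPKM in control cells (log2 0.49, Cuffdiff q = 0.000833). RBBP8-204 had 4.76 FPKM in cytokine cells and 7.34 FPKM in control cells (log2 -0.62, Cuffdiff q = 0.00925). Both encode 897 codons in GENCODE. Of the 95649 transcripts tested in all genes, 4.70% were lower and 5.17% higher at q of 0.05.

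The MRE11 complex senses and trims broken ends, and 1 of its subunits fell while the other two rose. NBN (chromosome 8, 89924515 to 90003228), the subunit that recruits the kinase ATM, had 5073 normalized counts in cytokine cells and 1691 in control cells. Its log2 fold change in the authors' deposited table was 1.59 ± 0.04, with an adjusted p listed as 0. NBN-201, which encodes 754 codons, had 22.6 FPKM in cytokine cells and 7.51 FPKM in control cells. RAD50 (chromosome 5, 132556019 to 132646349), the ATPase that tethers ends, had 4919 normalized counts in cytokine cells and 3786 in control cells, or 0.38 ± 0.04 in the authors' deposited table (adjusted p = 1.11e-25). MRE11A (chromosome 11, 94415570 to 94493885, now MRE11), the nuclease, had 824 normalized counts in cytokine cells and 1491 in control cells, or -0.86 ± 0.06 in the authors' deposited table (adjusted p = 3.42e-45). Per length, NBN and MRE11A stood at 27.5 and 4.38 FPKM in cytokine cells and at 8.71 and 7.74 FPKM in control cells. Their levels were thus close in control cells and far apart in cytokine cells. NBN and RAD50 overlap other genes on the opposite strand, the library kit was directional, and whether counting used strand is not known here. Genes that fell have such overlaps too, among them BRCA1, RAD54L, FANCA, FANCI and MSH6.

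The apical kinases did not pass the threshold in the authors' deposited table. ATM, which answers to broken ends, had 3767 normalized counts in cytokine cells and 3576 in control cells (0.08 ± 0.04; the authors' adjusted p = 0.110), but passed after re-centring (0.13, adjusted p of 0.00178). ATR, which answers to stalled forks, had 1253 normalized counts in cytokine cells and 1311 in control cells, or -0.07 ± 0.05 in the authors' deposited table (adjusted p = 0.401). CHEK2, an effector kinase, had 393 normalized counts in cytokine cells and 637 in control cells, or -0.70 ± 0.09 in the authors' deposited table (adjusted p = 7.43e-14). Cuffdiff did not call CHEK2 (q = 0.432), and 7 annotated pseudogene copies could share its reads. CHEK1, the other effector kinase, shares its locus with STT3A, a subunit of the glycosylation enzyme, and the locus had 8220 normalized counts in cytokine cells and 8008 in control cells. Transcripts named CHEK1 summed to 8.43 FPKM in cytokine cells and 14.0 FPKM in control cells, and those of other names to 79.9 FPKM in cytokine cells and 68.2 FPKM in control cells. None of 9 tested CHEK1 transcripts passed a Cuffdiff q of 0.05, so the count of the locus, which passed after re-centring (0.09), does not show what CHEK1 did.

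**Figure D3:**
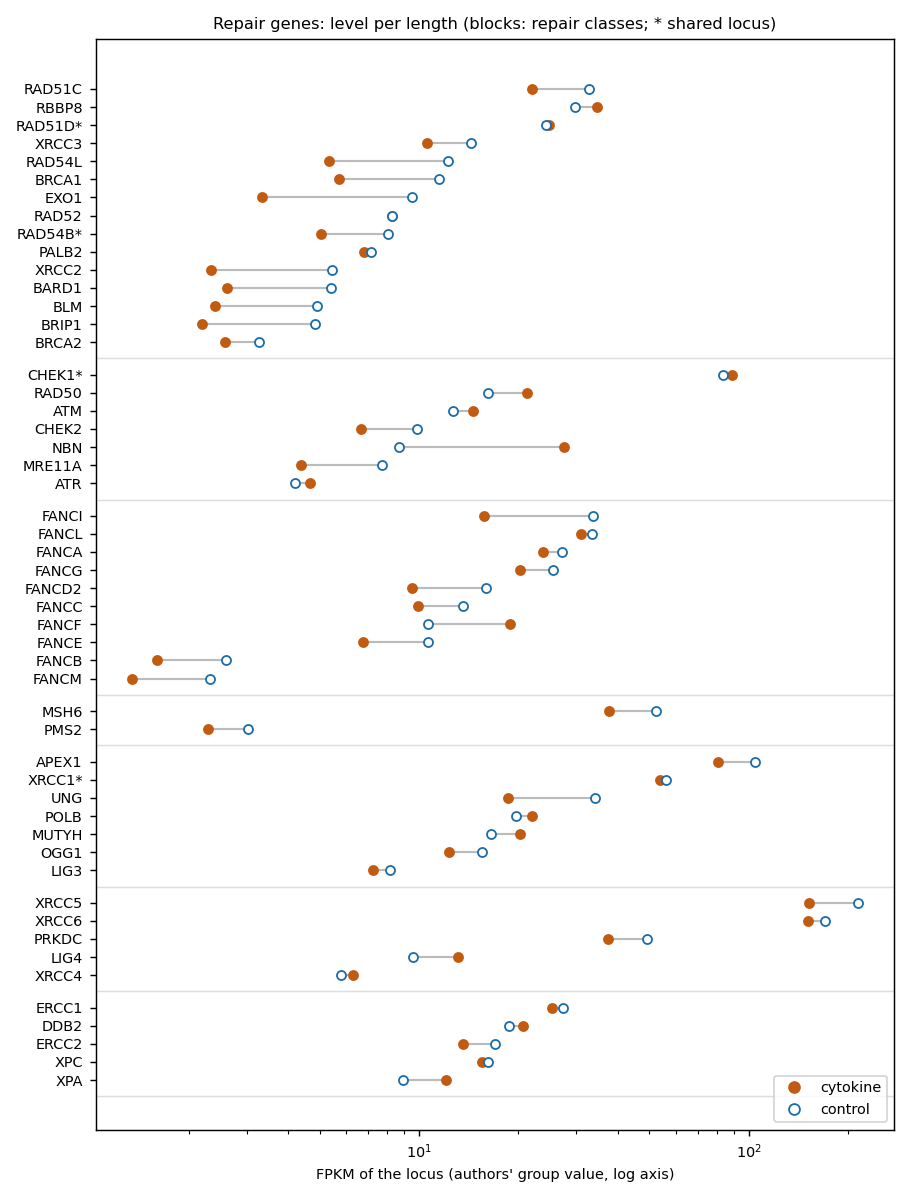
The authors' group FPKM of the 51 genes in cytokine and control cells on a log axis, in blocks by repair class. NBN stands at 27.5 FPKM in cytokine cells and 8.71 FPKM in control cells, and FANCF at 18.9 FPKM in cytokine cells and 10.7 FPKM in control cells.

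In the Fanconi class, every gene fell except FANCF and FANCL. FANCI, which is clamped on DNA with FANCD2 at a crosslink, had 2295 normalized counts in cytokine cells and 4730 in control cells, or -1.04 ± 0.04 in the authors' deposited table (adjusted p = 3.77e-148). FANCD2 had 1108 normalized counts in cytokine cells and 2007 in control cells, or -0.86 ± 0.05 in the authors' deposited table (adjusted p = 1.54e-66), but its Cuffdiff q was 0.0515. FANCM, the translocase that anchors the pathway on DNA, had 269 normalized counts in cytokine cells and 526 in control cells, or -0.97 ± 0.10 in the authors' deposited table (adjusted p = 2.91e-21).

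Of the core ubiquitin ligase, FANCB had 179 normalized counts in cytokine cells and 343 in control cells, or -0.94 ± 0.12 in the authors' deposited table (adjusted p = 5.46e-14). FANCE (-0.69 ± 0.06), FANCA (-0.68 ± 0.04), FANCG (-0.66 ± 0.05) and FANCC (-0.34 ± 0.05) passed too. Cuffdiff did not call FANCA (-0.19, q = 0.491), although its transcript FANCA-202, of 1455 codons, had 3.17 FPKM in cytokine cells and 5.72 FPKM in control cells (log2 -0.85, q = 0.00808). FANCL, the catalytic subunit, had 2165 normalized counts in cytokine cells and 2006 in control cells, or 0.11 ± 0.05 in the authors' deposited table (adjusted p = 0.0409). Cuffdiff put FANCL at -0.11 (q = 0.330), so the deposited tables differ in its direction.

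FANCF, an adaptor of the same complex, rose, whereas FANCA, FANCB, FANCC, FANCE and FANCG fell. It lies on chromosome 11 (22622533 to 22625823, minus strand) and had 3177 normalized counts in cytokine cells and 1812 in control cells, or 0.81 ± 0.04 in the authors' deposited table (adjusted p = 1.56e-92). Its only annotated transcript in the isoform table had 18.9 FPKM in cytokine cells and 10.7 FPKM in control cells. The gene overlaps GAS2 on the opposite strand.

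Promoter windows from RefSeq (GRCh38.p14) were searched for short motifs, because many members fell together. Of the 51 genes, 45 matched, with 70 windows around annotated starts, and RAD54B, NBN, FANCI, POLB, PRKDC and XRCC5 did not. An E2F-type motif was searched on both strands as TTTGGCGC, TTTCCCGC, TTTCGCGC or TTTGCCGC. It was in 10 of 39 windows of genes that fell (25.6%), or in 9 of 27 such genes, since overlapping PMS2 windows hold the same site. It was in 0 of 14 windows of genes that rose, 1 of 17 of genes not called and 3.31% of all 35116 windows. Among genes of loci of at least 100 counts, 5.92% of windows of those called lower and 3.12% of those called higher held it. The UNG match was in the window around the start of its mitochondrial transcript, which did not pass. The window of its nuclear transcript, which fell, held no match. CCAAT was in 48.6% of repair gene windows and 34.6% of all windows, and TTTGAA (CHR) in 11.4% and 15.2%. By call, CCAAT was in 48.7% of windows of genes that fell, 58.8% of those not called and 35.7% of those that rose. TTCNNNGAA (GAS) was in 7.14% of repair gene windows and 7.66% of all, and the interferon-stimulated response element (ISRE) core in 0 of 70 and 3.57% of all. A match is a description and not a bound site. Stretches near the start are shown for 3 genes that fell, with E2F-type matches in capitals, and for FANCF, which rose, with CCAAT in capitals.
EXO1 (chr1:241848104-241848215, plus strand): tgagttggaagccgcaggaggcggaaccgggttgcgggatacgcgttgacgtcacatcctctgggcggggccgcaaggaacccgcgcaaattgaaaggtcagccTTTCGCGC
FANCD2 (chr3:10026337-10026448, plus strand): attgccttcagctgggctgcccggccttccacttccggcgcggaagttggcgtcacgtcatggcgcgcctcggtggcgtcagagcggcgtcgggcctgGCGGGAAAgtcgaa
FANCC (chr9:95317710-95317909, minus strand): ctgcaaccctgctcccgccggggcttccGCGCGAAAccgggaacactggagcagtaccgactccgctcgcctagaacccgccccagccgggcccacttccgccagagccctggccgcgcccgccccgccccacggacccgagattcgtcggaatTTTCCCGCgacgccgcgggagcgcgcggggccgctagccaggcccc
FANCF (chr11:22625824-22625933, minus strand): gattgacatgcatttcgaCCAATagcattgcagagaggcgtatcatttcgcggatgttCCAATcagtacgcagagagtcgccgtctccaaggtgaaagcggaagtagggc
The EXO1 match begins 4 bases after the start base, the FANCD2 match spans the start, and FANCC holds matches on both strands.

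Both mismatch repair genes fell. MSH6 (chromosome 2, 47695530 to 47810063), which recognises single mispaired bases, had 6291 normalized counts in cytokine cells and 8973 in control cells, or -0.51 ± 0.03 in the authors' deposited table (adjusted p = 9.85e-86). PMS2, a subunit of the nicking enzyme, had 346 normalized counts in cytokine cells and 455 in control cells, or -0.40 ± 0.10 in the authors' deposited table (adjusted p = 0.000136). PMS2 has 15 annotated pseudogene copies, so its separate level is uncertain.

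Of the 7 base excision genes among the 51, the glycosylase that removes uracil fell furthest. UNG (chromosome 12, 109097597 to 109126725) had 634 normalized counts in cytokine cells and 1172 in control cells, or -0.89 ± 0.06 in the authors' deposited table (adjusted p = 5.26e-43). UNG-201, which encodes the nuclear enzyme of 313 codons, had 6.14 FPKM in cytokine cells and 19.1 FPKM in control cells (log2 -1.64, Cuffdiff q = 0.000833). UNG-202, which encodes the mitochondrial enzyme of 304 codons, had 12.2 FPKM in cytokine cells and 14.7 FPKM in control cells and did not pass (log2 -0.26, Cuffdiff q = 0.0571). The nuclear form made up 33.0% of the gene's named FPKM in cytokine cells and 56.1% in control cells, so the leading transcript differed between groups. The difference between the transcripts was not tested. They share their last 808 coding bases and differ in the bases before them. The starts of both coding sequences are shown to mark what tells the forms apart, with each form's own bases in capitals and the first shared bases in lower case (GENCODE release 44, hg38, plus strand).
UNG-201, nuclear: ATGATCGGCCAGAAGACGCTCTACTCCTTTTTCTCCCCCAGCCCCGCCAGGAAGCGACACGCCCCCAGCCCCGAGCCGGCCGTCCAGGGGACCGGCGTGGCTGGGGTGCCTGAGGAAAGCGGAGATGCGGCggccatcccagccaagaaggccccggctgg
UNG-202, mitochondrial: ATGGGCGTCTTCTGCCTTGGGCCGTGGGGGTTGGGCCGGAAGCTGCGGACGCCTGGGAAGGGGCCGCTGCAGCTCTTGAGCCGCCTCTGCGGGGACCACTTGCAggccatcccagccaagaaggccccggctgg
Coding begins at 109097680 in UNG-201 and at 109098327 in UNG-202, which lies in the first intron of UNG-201.

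**Figure D4:**
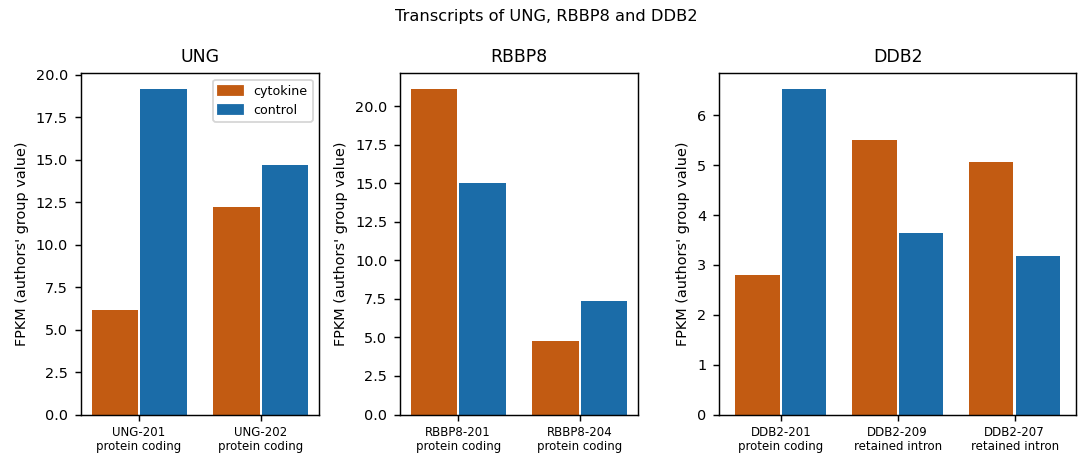
The authors' group FPKM of leading transcripts, cytokine left of control, with axes from 0 and no error, since group values have none. UNG-201 stands at 6.14 FPKM in cytokine cells and 19.1 FPKM in control cells, and UNG-202 at 12.2 FPKM in cytokine cells and 14.7 FPKM in control cells.

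APEX1, the nuclease that cuts where a base was removed, had the highest FPKM of these 7 genes, 81.0 in cytokine cells and 104 in control cells. It had 4523 normalized counts in cytokine cells and 5862 in control cells, or -0.37 ± 0.03 in the authors' deposited table (adjusted p = 1.58e-36). OGG1, which removes oxidised guanine, had 611 normalized counts in cytokine cells and 772 in control cells, or -0.34 ± 0.07 in the authors' deposited table (adjusted p = 1.59e-05). MUTYH, which removes adenine paired with oxidised guanine, had 1091 normalized counts in cytokine cells and 948 in control cells, or 0.20 ± 0.06 in the authors' deposited table (adjusted p = 0.00446). Cuffdiff called neither OGG1 (q = 0.244) nor MUTYH (q = 0.187). LIG3, a ligase of single-strand breaks, fell (-0.19 ± 0.06) and POLB, the gap-filling polymerase, rose (0.16 ± 0.06). The call of LIG3 was lost with Cuffdiff (q = 0.631) and after re-centring of the fold changes on abundant loci (adjusted p of 0.0945). XRCC1, the scaffold of single-strand break repair, shares its locus with IRGQ and stood at 6306 normalized counts in cytokine cells and 6293 in control cells. Transcripts named XRCC1 summed to 22.2 FPKM in cytokine cells and 24.96 FPKM in control cells.

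End joining held the genes of highest FPKM among the 51, XRCC5 and XRCC6, and its Ku subunits and kinase fell while its ligase rose. XRCC5, which forms the Ku ring with XRCC6 around a broken end, had 22660 normalized counts in cytokine cells and 32503 in control cells, or -0.52 ± 0.02 in the authors' deposited table (adjusted p = 8.04e-159). XRCC6 had 14302 normalized counts in cytokine cells and 16681 in control cells, or -0.22 ± 0.02 in the authors' deposited table (adjusted p = 6.65e-23), with a Cuffdiff q of 0.0931. PRKDC, the kinase that Ku recruits, had 11234 normalized counts in cytokine cells and 17415 in control cells, or -0.63 ± 0.02 in the authors' deposited table (adjusted p = 1.25e-160). LIG4, which seals the ends, had 2069 normalized counts in cytokine cells and 1536 in control cells, or 0.43 ± 0.05 in the authors' deposited table (adjusted p = 1.75e-19). Its partner XRCC4 did not pass (0.14 ± 0.10; the authors' adjusted p = 0.365).

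In nucleotide excision repair, log2 fold changes lay between -0.26 and 0.36. ERCC2, a helicase that opens DNA around the lesion, had 1442 normalized counts in cytokine cells and 1728 in control cells, or -0.26 ± 0.05 in the authors' deposited table (adjusted p = 9.69e-07). ERCC1, part of a nuclease that cuts beside the lesion, had 1195 normalized counts in cytokine cells and 1315 in control cells, or -0.14 ± 0.05 in the authors' deposited table (adjusted p = 0.0283). The call of ERCC1 was lost with Cuffdiff (q = 0.364) and after re-centring (adjusted p of 0.253). XPA, which verifies the lesion, had 374 normalized counts in cytokine cells and 291 in control cells, or 0.36 ± 0.11 in the authors' deposited table (adjusted p = 0.00215), and Cuffdiff did not call it (q = 0.227). The damage sensors XPC (-0.11 ± 0.06) and DDB2 (0.09 ± 0.05) did not pass, although DDB2 did after re-centring (0.15, adjusted p of 0.00779).

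The DDB2 locus held a transcript that fell. DDB2-201, of 427 codons, had 2.80 FPKM in cytokine cells and 6.52 FPKM in control cells (log2 -1.22, Cuffdiff q = 0.0246). DDB2-209, annotated as retaining an intron, had 5.51 FPKM in cytokine cells and 3.64 FPKM in control cells and did not pass (q = 0.665). DDB2-201 made up 17.8% of the gene's named FPKM in cytokine cells and 40.4% in control cells.

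Across all 51 genes, 657 named transcripts were listed and 319 tested. At a Cuffdiff q of 0.05, 31 were lower (9.72%) and 7 higher (2.19%). The lower ones belonged to 24 genes and the higher ones to 5, namely RBBP8, RAD50, NBN, ATR and FANCF. ATR-205, which retains an intron, had 0.481 FPKM in cytokine cells and 0.240 FPKM in control cells (log2 1.00, Cuffdiff q = 0.00232), while the leading ATR-201 did not pass (-0.08, q = 0.227). Among transcripts that carry the gene's name, the leading one differed between groups in 6 genes, BLM, UNG, OGG1, MUTYH, PRKDC and DDB2. Transcripts without a gene name were left out of this ranking, which could differ with them. In BLM, such a transcript stood above the named ones in both groups, at 0.790 FPKM in cytokine cells and 2.24 FPKM in control cells. BLM-201, of 1417 codons, had 0.406 FPKM in cytokine cells and 1.44 FPKM in control cells (log2 -1.82, Cuffdiff q = 0.000833). PRKDC-201, of 4128 codons, had 16.0 FPKM in cytokine cells and 24.3 FPKM in control cells (log2 -0.60, Cuffdiff q = 0.000833), and the intron-retaining PRKDC-207 had 17.6 FPKM in cytokine cells and 21.3 FPKM in control cells (q = 0.758). In OGG1 and MUTYH no leading transcript passed. In EXO1, transcripts without a gene name held 2.49 FPKM in cytokine cells and 7.35 FPKM in control cells, and the named ones 0.854 FPKM in cytokine cells and 2.15 FPKM in control cells.

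**Figure D5:**
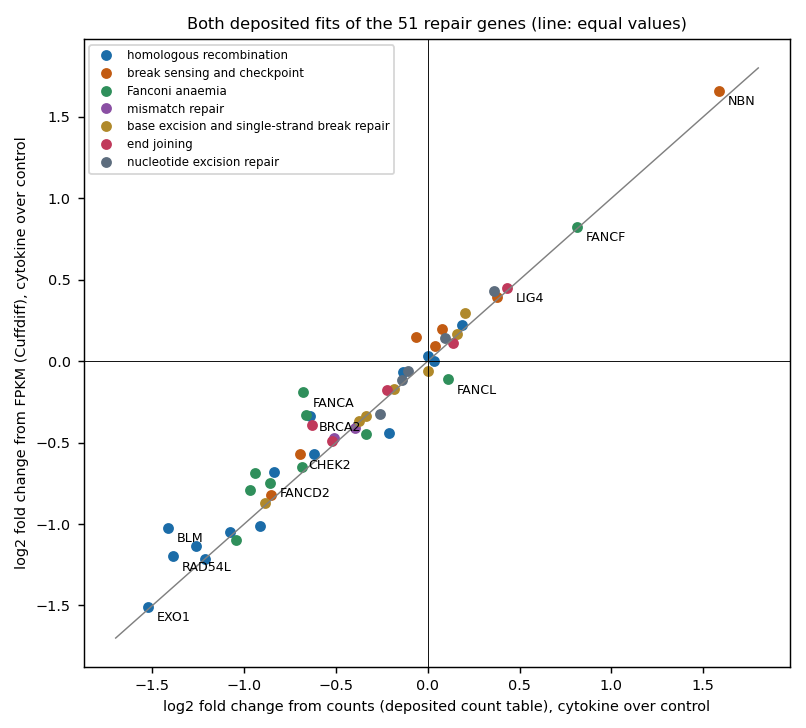
Deposited log2 fold changes of the 51 genes from counts (horizontal) and from FPKM (vertical), cytokine over control, with a line of equal values. FANCA lies off the line, at -0.68 from counts and -0.19 from FPKM.

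Of 105 other genes of these pathways, 65 were lower, 19 higher and 21 did not pass in the authors' deposited table, where their median was -0.27 on the log2 scale. That was 61.9% lower and 18.1% higher, beside 40.5% and 30.8% of the 13024 loci of at least 100 counts. In recombination 11 of 16 were lower and 3 higher. RAD51AP1, which stimulates strand invasion, had 676 normalized counts in cytokine cells and 1468 in control cells (-1.12 ± 0.06). RMI2, a partner of BLM, rose, with 2267 normalized counts in cytokine cells and 1106 in control cells (1.04 ± 0.05), and its Cuffdiff log2 fold change was 0.41 (q = 0.00200). RMI2 overlaps SOCS1 and other genes on the opposite strand, with which reads could be shared. Among 16 sensing and checkpoint genes, 11 were lower and 3 higher, led by CDC25A, a phosphatase that the checkpoint targets (-1.20 ± 0.05), and CLSPN, which helps ATR reach CHEK1 (-1.18 ± 0.05). In the Fanconi pathway 7 of 10 were lower and 0 higher, led by UBE2T, which passes ubiquitin to FANCI and FANCD2 (-0.83 ± 0.05), and the nuclease scaffold SLX4 (-0.82 ± 0.07).

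Of 12 other mismatch repair and gap-filling genes, 10 were lower and 2 higher in the authors' deposited table, led by the clamp loader subunit RFC3 (-1.20 ± 0.04) and the clamp PCNA (-0.99 ± 0.02), which also serve replication. Base excision had 10 lower and 2 higher of 16, led by the glycosylase NEIL3 (-1.28 ± 0.08) and PARP2, a sensor of strand breaks (-0.89 ± 0.05). End joining had 2 lower and 5 higher of 8, but Cuffdiff called 1 lower and 1 higher, and only 5 of the 8 loci held a single coding gene. POLQ, the polymerase of an alternative end joining route, stood at -0.92 ± 0.07, and APLF, counted with PROKR1, at 0.41 ± 0.15 with a Cuffdiff q of 0.127. Nucleotide excision had 7 lower and 2 higher of 17, led by ERCC8 (-0.46 ± 0.09) and GTF2H5 (-0.32 ± 0.06). Its lower share of 41.2% lay near the 40.5% of all 13024 loci of at least 100 counts. Translesion synthesis and direct reversal had 7 lower and 2 higher of 10, led by the polymerase POLH (-0.94 ± 0.07) and the ubiquitin ligase RAD18, counted with OXTR and SSUH2 (-0.79 ± 0.06).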

How the data were processed

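Poly(A) RNA libraries of 3 cytokine and 3 control samples were made with a directional kit, per the labels. The submitters' processing notes name STAR 2.5.2b, FastQC 0.10.1 and bcl2fastq for the reads, with StringTie, DESeq and Cuffdiff 2.2.1 on build hg38. How reads were counted, and on which annotation, is not stated in the labels. The authors deposited a signal (mean over libraries of counts divided by size factors), log2 fold changes with SE, a score (log2 fold change over SE, or Cuffdiff's statistic), p-values with adjusted p-values or q-values, and group FPKM. Only the comparison is in these tables, so tests per library were not run and the authors' adjusted p at 0.05 was used. Benjamini-Hochberg values recomputed here differed by at most 1.53e-15.

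A gene's value is that of the locus whose name, split at semicolons, holds its symbol. Of the 51 genes, 43 were alone in their locus and 4 shared it with another coding gene. Full values are given, in each class, for up to 4 genes past the threshold with the largest change, the gene of highest mean, and genes whose tables differ in direction or whose locus is shared. The BRCA genes, BARD1, PALB2, XRCC2, FANCF, ATM and the transcripts FANCA-202, NBN-201 and ATR-205 fall outside these rules and were added after their values were seen. Of other repair genes, the 2 largest changes per class with a mean of at least 100 are named. Transcripts are named where leading ones swap or go against their gene. Members, classes and lists were chosen with earlier results of these data known. Alternatives were Cuffdiff, a threshold of 0.01, re-centring on loci of at least 1000 counts (checked on simulated data), loci of 1 coding gene, a mean of at least 100 counts and no filter. The simulation changed few loci, up or down at random, whereas 71.2% of loci of at least 100 counts passed in the data. It therefore cannot show that the re-centred median is neutral here. Software was matplotlib 3.10.9, scipy 1.17.1, numpy 2.4.6 and pandas 2.3.3 in Python 3.11.15. Coordinates are from GENCODE release 44.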

Additional observations from a re-analysis of the deposited data

How the results depend on the processing

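The totals of 31 lower and 9 higher repair genes, and the counts for recombination, mismatch repair and end joining, stayed within 1.5 times under every alternative run. With Cuffdiff, break sensing had 1 lower gene, the Fanconi class 1 higher, base excision 2 lower and 1 higher, nucleotide excision 1 lower and 0 higher, and the other repair genes 8 higher. After re-centring on abundant loci, break sensing had 4 higher genes and nucleotide excision 1 lower and 2 higher. At an adjusted p of 0.01, the Fanconi class and base excision each had 1 higher gene and nucleotide excision 1 lower, and with no filter on low counts the Fanconi class had 1 higher. With Cuffdiff, ATR stood at 0.15, FANCL at -0.11 and XRCC1 at -0.058, opposite in sign to the count table, and 10 other genes lost their call (BRCA2, CHEK2, FANCA, FANCD2, OGG1, MUTYH, LIG3, XRCC6, XPA and ERCC1). After re-centring, LIG3 and ERCC1 lost their call, and ATM, CHEK1 and DDB2 gained one. The causes were not tested. At q of 0.01, chosen after seeing the data, 26 transcripts were lower and 6 higher. No paired analysis was possible because the tables hold no values per replicate, and leaving out a replicate was not run for the same reason.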
